A study of Homo sapiens with 2 samples.

Results

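The MYC, MAX and MXD network is a set of transcription factor genes, and 10 of them, chosen by name, were looked up in the deposited expression table: MYC, MYCN, MYCL, MAX, MXD1, MXD3, MXD4, MXI1, MNT and MLX. All 10 were found among its 17912 entries. The table holds RNA levels from 2 libraries of U2OS cells, an established human osteosarcoma line, kept in 0.3 µM aphidicolin for 18 h while growing asynchronously. Aphidicolin blocks the replicative DNA polymerases. Both libraries belong to this single treated group, which carries no other agent or engineered allele in the labels, and the labels do not tell separate cultures from repeat preparations, so their spread may be purely technical. Untreated cells were not analysed here, and the values below are levels in treated cells and not responses to the drug. Markers of bone and mesenchymal cells fitted the labelled line. SPARC stood at 280 ± 3.67 RPKM, VIM at 249 ± 0.226, COL1A1 at 209 ± 0.879 and RUNX2 at 8.55 ± 0.181 (SD, n = 2). Of the markers of other cells, the leukocyte gene PTPRC was at 0.145 ± 0.0748, CDH1 at 0.812 ± 0.168 and PECAM1 at 0.276 ± 0.00308. The epithelial gene EPCAM was at 2.28 ± 0.210 and so passed 1 RPKM in both libraries, the level taken below as expressed. CD3E and ALB were not listed. RPKM are reads per kilobase of exon, scaled by the library total, which was 13227805 reads in replicate 1 and 13020149 in replicate 2.

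These proteins share a basic helix-loop-helix leucine zipper, which both dimerises and binds DNA. MYC, MYCN and MYCL dimerise with MAX at E-boxes and activate transcription of growth genes, such as those of ribosome assembly and nucleotide synthesis. MXD1, MXI1, MXD3, MXD4 and MNT compete for MAX and for the same sites and recruit the SIN3 corepressor with its histone deacetylases. MLX is the MAX-like partner of MLXIP and MLXIPL, which answer to glucose metabolites, and it also dimerises with some of the MXD proteins and with MNT. MAX is thus the shared partner, and the supply of each partner helps to set which dimers form.

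The canonical E-box, CACGTG, reads the same on both strands. It was searched in the window from 250 bases before to 50 bases after the start of each gene, using RefSeq promoter sequences (GRCh38.p14). Of the 9 network genes with a window in that table, 3 held the letters, namely MXD4, MNT and MLX, and MYC itself was not searched. The same letters stood in 7.43% of all 27305 windows and in 10.1% of the 9426 windows of genes at 1 RPKM or more in both libraries. Of 26 matched genes of a list of textbook MYC-activated genes, 11 held it, or 42.3%. How far known E-boxes helped to place genes on that list was not examined, so this share is a description and not a test. The letters also stood in 2 of 9 genes that MYC is known to repress (22.2%). They were in 4 of 14 regulators of MYC protein turnover (28.6%) and in 2 of 5 targets of MLX. Other lists lay nearer to all windows, with 2 of 15 MYC coactivators and chromatin partners (13.3%) and 1 of 15 SIN3 corepressor genes (6.67%). The Polycomb complex of MGA had 1 of 9 (11.1%), and other E-box binding leucine zipper factors had 0 of 8. Other proteins of the network had 0 of 3, as did RNAs transcribed next to MYC family genes. Only exact copies of CACGTG were counted, so imperfect E-boxes, also in targets of MLX, were not scored. The sites of the 3 members are shown with those of 4 activated genes described further on. They stand in capitals within 30 bases read 5′ to 3′ on the strand of the gene. A match describes a sequence, and no binding was measured.
MXD4 (chr4:2262330-2262359, minus strand): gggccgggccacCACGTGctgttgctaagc
MNT (chr17:2401236-2401265, minus strand): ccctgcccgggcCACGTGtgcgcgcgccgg
MLX (chr17:42567038-42567067, plus strand): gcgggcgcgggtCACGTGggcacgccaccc
LDHA, distal (chr11:18394366-18394395, plus strand): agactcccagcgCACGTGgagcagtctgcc
LDHA, proximal (chr11:18394464-18394493, plus strand): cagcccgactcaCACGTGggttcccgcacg
SRM (chr1:11060200-11060229, minus strand): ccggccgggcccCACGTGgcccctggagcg
HSPD1 (chr2:197500345-197500374, minus strand): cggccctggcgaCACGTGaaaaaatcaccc
HSPE1 (chr2:197500345-197500374, plus strand): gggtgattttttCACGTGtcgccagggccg
The first base of the E-box lay 238 bases upstream of the RefSeq start in MXD4, 193 in MNT and 50 in MLX. In LDHA the sites lay 185 and 87 bases upstream of the RefSeq start. HSPD1 and HSPE1 are read in opposite directions from a shared stretch, so their lines are the same site on either strand. Both genes are counted among the 11 activated genes with the letters. The gene bounds given further on are those of GENCODE release 29 and span all transcripts of a gene, so they differ from the RefSeq starts used here. The windows searched for MXD1 (chr2:69914859-69915158), MAX (chr14:65102234-65102533) and MYCL (chr1:39901868-39902167) lie inside the GENCODE bounds of those genes. So do those of HSPD1 (chr2:197500225-197500524) and HSPE1 (chr2:197500129-197500428), and those of some other list genes. Starts at the outer bounds of these genes were not searched. The proximal LDHA site also lies inside the GENCODE bounds of its gene, which begin at 18394388.

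Among the MYC genes the RNA came almost wholly from MYC itself. MYC was at 26.6 RPKM in replicate 1 and 26.1 in replicate 2 (26.4 ± 0.328), the highest level of the 10 genes, and it ranked 1846 among all 17912 entries. MYCN, the paralogue amplified in neuroblastoma, was at 1.07 and 1.06 RPKM on 37 and 36 reads. MYCL, first found in lung cancer, was at 0.552 and 0.531 RPKM on 37 and 35 reads. The paralogues thus lay far below MYC, with MYC at 24.9 times the RPKM of MYCN in replicate 1 and 24.7 times in replicate 2. Divided by the exon lengths in GENCODE release 29, which are shorter for MYC, the ratio was 37.8 in replicate 1 and 37.5 in replicate 2. In bulk RNA, fewer cells with a transcript and less of it per cell cannot be told apart. MYCL was the only network gene under 1 RPKM, the level taken here as expressed when reached in both libraries. The exact Poisson interval (95%, counting error only) of MYCN ran from 0.753 to 1.47 RPKM in replicate 1, so at this depth its side of 1 RPKM was not settled, and the interval of MYCL ran from 0.389 to 0.762. MYC lies on chromosome 8 from 127735434 to 127741434 on the plus strand (GENCODE release 29, GRCh38), and none of its exonic bases is shared with another annotated gene. MYCN lies on chromosome 2 from 15940564 to 15947007 and MYCL on chromosome 1 from 39895426 to 39902256.

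**Figure D1:**
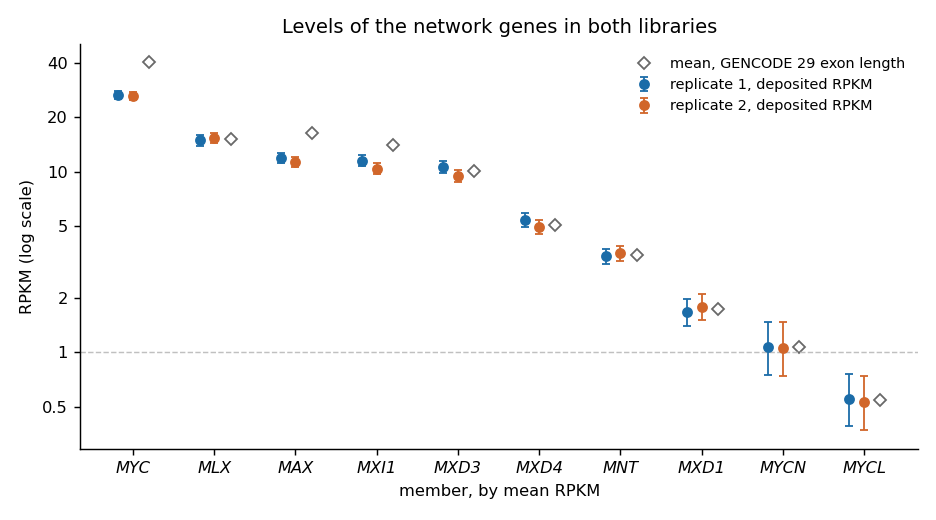
RPKM of the 10 network genes (log axis) in replicate 1 and replicate 2, with exact 95% Poisson intervals that cover counting error only, and as open diamonds the mean of both libraries rescaled to the exon length in GENCODE release 29. MYC stood highest under both lengths, the diamonds lie well above the points for MYC, MAX and MXI1, and MYCL lay under the dashed line at 1 RPKM.

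MAX, the obligate partner of the MYC proteins and a partner of the MXD and MNT proteins, was at 11.9 RPKM in replicate 1. In replicate 2 it was at 11.3 RPKM (11.6 ± 0.447). It stood below MYC in both libraries, and the ratio of MYC to MAX in RPKM was 2.23 in replicate 1 and 2.31 in replicate 2. Summed over the 3 MYC genes and the 5 MXD and MNT genes, whose proteins pair with MAX, the RPKM came to 5.10 times that of MAX in replicate 1 and 5.12 times in replicate 2. MGA, another partner of MAX, is not in this sum. These are ratios of RNA and say nothing of protein. The gene spans 96.5 kb on chromosome 14 (65006174 to 65102695, minus strand), and 4.15% of its exonic bases overlap another annotated gene.

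The 5 repressor genes all reached 1 RPKM and differed widely among themselves, with the RPKM of MXI1 at 6.35 times that of MXD1. MXI1 led with 11.5 RPKM in replicate 1 and 10.4 in replicate 2 (10.9 ± 0.817). MXD3, which is expressed in dividing cells in S phase in mouse, followed with 10.6 and 9.51 RPKM (10.0 ± 0.766). MXI1 was above MXD3 within each library, but the ranges of both genes over the libraries overlapped on the deposited RPKM. On GENCODE's exon lengths they did not overlap, with MXI1 at 14.8 and 13.3 RPKM and MXD3 at 10.6 and 9.51. MXD4 was at 5.43 and 4.94 RPKM (5.19 ± 0.350). MNT, the broadly expressed member that opposes MYC in growing cells, was at 3.40 and 3.53 RPKM (3.46 ± 0.0945). MXD1, which is induced on differentiation in blood and epithelial cells, was lowest with 1.67 and 1.79 RPKM on 140 and 148 reads. MXI1 held 34.9% of the RPKM summed over the 5 repressors, MXD3 32.0%, MXD4 16.5%, MNT 11.1% and MXD1 5.53% (means of both libraries).

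Of the exonic bases of MXD3, 40.4% overlap other genes, 22.5% with PRELID1 on the opposite strand and 18.0% with RAB24 on its own strand. PRELID1 was at 26.4 RPKM in replicate 1 and 25.3 in replicate 2, and RAB24 at 2.31 and 1.79 RPKM. The use of strand in counting is not given in the sources used here, and the part of the overlap in the MXD3 level was not tested. Its 722 and 638 reads rest on a length of 5154 bases, and its RPKM also allow 2577 bases with fewer reads. For MNT the overlapping share was 12.2% and for MXD4 it was 1.13%. In the same annotation MXD3 lies on chromosome 5 from 177301461 to 177312757 and MXI1 on chromosome 10 from 110207605 to 110287365. MXD4 lies on chromosome 4 from 2247432 to 2262294, MNT on chromosome 17 from 2384060 to 2401118 and MXD1 on chromosome 2 from 69897688 to 69942945.

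MLX was the second highest network gene by RPKM, at 14.9 RPKM in replicate 1 and 15.4 in replicate 2 (15.2 ± 0.334). The gene lies on chromosome 17 from 42567068 to 42573239. Of its exonic bases 18.1% overlap PSMC3IP on the opposite strand, which itself was at 9.60 ± 0.191 RPKM. Of its usual partners, MLXIP (MondoA) was at 8.50 and 8.90 RPKM, and MLXIPL (ChREBP), the form of liver and fat, was at 0.173 and 0.191 RPKM on 11 and 12 reads. MGA, a large protein that dimerises with MAX and joins a Polycomb complex, was at 5.11 and 5.57 RPKM. The MLX arm was thus represented by MLX and MLXIP, with MLXIPL below 1 RPKM in both libraries.

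In descending order of mean RPKM the genes ran MYC, MLX, MAX, MXI1, MXD3, MXD4, MNT, MXD1, MYCN and MYCL. Neighbours in this order did not overlap between the libraries, except MAX with MXI1 and MXI1 with MXD3 on the deposited RPKM. On GENCODE's lengths these pairs did not overlap. With exact Poisson intervals, MXD1 with MYCN and MYCN with MYCL also overlapped. The count of network genes at 1 RPKM or more in both libraries was 9 of 10, beside 66.7% of all entries. Their median was 7.62 RPKM, beside 3.53 RPKM over all entries.

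The exon length that divides the reads mattered for 3 members. Whole reads could be recovered from the RPKM, and the lengths behind them were 4584 bases for MYC, 6257 for MAX and 5907 for MXI1. The exon lengths in GENCODE release 29 are 3001, 4430 and 4607 bases, so the RPKM of these 3 genes would be higher by 1.53, 1.41 and 1.28 times if divided by GENCODE's. MYC would then stand at 40.3 ± 0.501 RPKM, MAX at 16.4 ± 0.631 and MXI1 at 14.0 ± 1.05. For the other 7 genes the lengths differed by under 3%. On GENCODE's lengths MAX stood above MLX, the reverse of the deposited order, and MYC over MAX was 2.41 in replicate 1 and 2.50 in replicate 2. Which length fits the transcripts made in these cells was not tested.

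The balance between activators and repressors turned with the same choice. On the deposited RPKM, the MYC genes held 32.5% ± 0.427 of the sum over the 10 genes, MAX 13.5% ± 0.172, the 5 repressors 36.4% ± 1.10 and MLX 17.6% ± 0.842 (SD, n = 2). The summed MYC genes were thus at 0.865 times the repressors in replicate 1 and 0.920 times in replicate 2. On GENCODE's lengths the same ratio was 1.18 in replicate 1 and 1.26 in replicate 2, so which side was larger depended on the length used. Both libraries lay below 1 on the deposited RPKM and above 1 on GENCODE's lengths. MXD3 held 32.0% of the repressor RPKM, and 40.4% of its exonic bases overlap other genes. The part of that overlap in this balance was not tested.

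**Figure D2:**
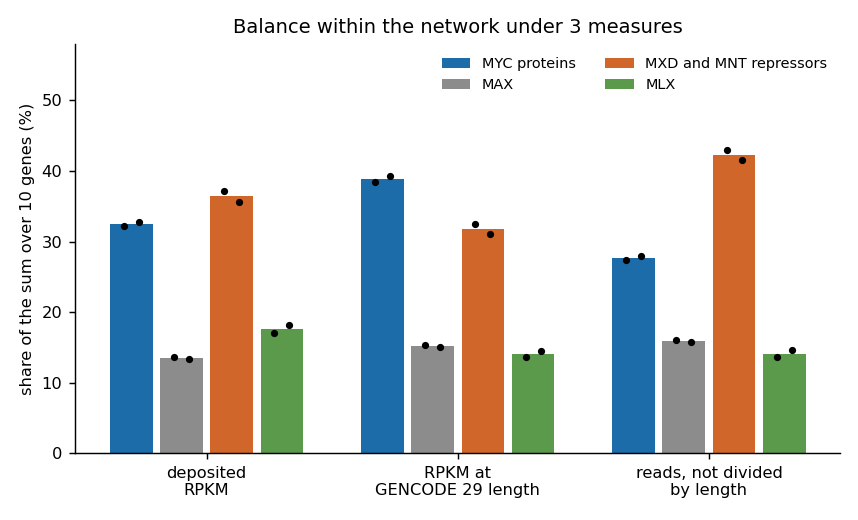
Share of the sum over the 10 network genes (%) held by the 3 MYC genes, MAX, the 5 MXD and MNT repressor genes and MLX, as deposited RPKM, as RPKM rescaled to GENCODE release 29 exon lengths, and as reads not divided by length. Bars are means of both libraries and points are replicate 1 (left) and replicate 2 (right). The repressor bar is the taller by deposited RPKM and by reads, and the MYC bar is the taller at GENCODE lengths.

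No network gene passed the test of the difference between the libraries. The comparison used the recovered reads in an exact binomial test, 2-sided, with Benjamini-Hochberg adjustment over 11944 genes, and it compares these libraries and no conditions. It called 201 genes, or 1.68% of those tested, and 0 of the 9 network genes at 1 RPKM. The smallest adjusted p of the 9 was 0.384, for MXI1. MXI1 held 900 reads in replicate 1 against 797 in replicate 2. Its log2 ratio (replicate 2 over replicate 1) was -0.15 ± 0.070, where the error is the counting SE, and it was the only member with an unadjusted p under 0.05, as were 11.9% of all genes tested. MXD3 (-0.15 ± 0.078) and MXD4 (-0.13 ± 0.094) had log2 ratios of the same sign, whereas MNT (0.06 ± 0.10), MXD1 (0.11 ± 0.17) and MLX (0.05 ± 0.070) had the opposite sign. MYC, with 1612 and 1559 reads, had a log2 ratio of -0.02 ± 0.051. For MYCN and MYCL the counting SE was 0.34 each, so only a large difference could have been seen.

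**Figure D3:**
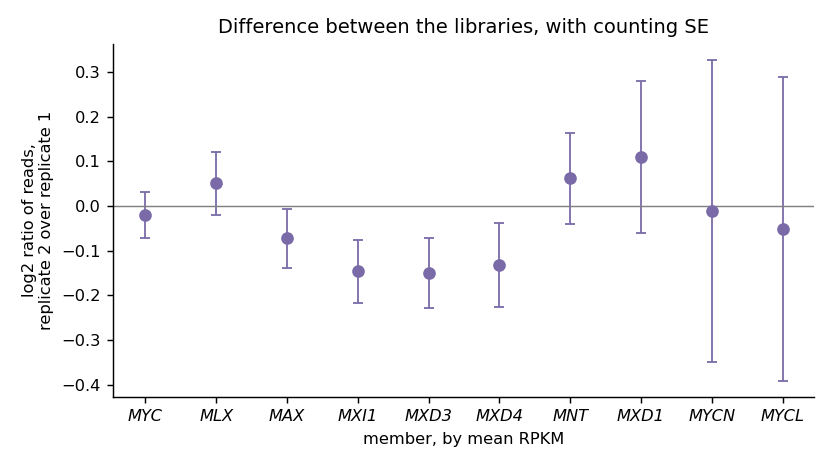
Log2 ratio of reads in replicate 2 over replicate 1 for the 10 network genes, after trimmed mean of M values scaling, with bars of 1 counting SE. All 10 points lie between -0.15 and 0.11, and the bars are widest for MYCN and MYCL.

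The counts of the gene lists that follow stand beside 66.7% of all entries at 1 RPKM or more in both libraries and a median of 3.53 RPKM. Of the 21 coactivators and chromatin partners of MYC, 21 reached 1 RPKM in both libraries, with a median of 14.9 RPKM. PAF1 of the elongation complex led with 45.6 ± 0.283 RPKM, followed by the helicase gene RUVBL2 at 35.0 ± 0.600, the MYC-binding scaffold gene WDR5 at 34.7 ± 1.61 and the acetyltransferase gene KAT2A at 27.9 ± 1.21. Lowest were ZBTB17 (MIZ1), through which MYC represses, at 6.51 ± 0.626 RPKM, and KAT5 at 5.59 ± 0.0529. Of the exonic bases of KAT5, 38.6% overlap RNASEH2C.

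All 18 regulators of MYC protein turnover reached the level, with a median of 10.7 RPKM. SET, an inhibitor of the phosphatase PP2A, was highest at 108 ± 2.85 RPKM, ahead of the kinase gene AURKA at 46.0 ± 0.0552, the ubiquitin ligase gene HUWE1 at 37.6 ± 1.00 and the F-box gene SKP2 at 34.4 ± 0.528. FBXW7, the F-box protein that marks phosphorylated MYC for destruction, was lowest at 2.81 ± 0.0118 RPKM, next to MYCBP2 at 2.92 ± 0.0752. SKP2, which also targets MYC, thus stood well above FBXW7 in both libraries.

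The SIN3 corepressor that MXD and MNT bind had 17 of 17 genes at the level, with a median of 11.4 RPKM. The deacetylase gene HDAC1 was at 38.0 ± 1.28 RPKM, SAP130 at 33.7 ± 0.857 and RBBP7 at 20.8 ± 0.766, while BRMS1L was at 4.87 ± 0.0844 and ING1 at 2.17 ± 0.0769. The Polycomb complex that MGA and MAX join had 9 of 9, led by CBX3 at 61.7 ± 3.20 and TFDP1 at 53.8 ± 0.967, then RING1 at 40.5 ± 1.40 and RNF2 at 12.9 ± 0.587. E2F6 was at 5.83 ± 0.0673 and YAF2 at 2.96 ± 0.384 RPKM.

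Textbook MYC-activated genes were the list with the highest median. Of 34 genes 33 reached 1 RPKM in both libraries, with a median of 38.5 RPKM. The lactate dehydrogenase gene LDHA led at 243 ± 16.0 RPKM, then the nucleolar genes NPM1 at 217 ± 5.23 and NCL at 136 ± 3.29, with ODC1, the first enzyme of polyamine synthesis, at 154 ± 3.55. At the recovered reads, LDHA was the only gene of any list that was called different between the libraries. It had 18476 reads in replicate 1 against 19969 in replicate 2. Its log2 ratio was 0.14 ± 0.015, with an adjusted p of 2.62e-18 in the exact binomial test. That test covers counting error alone. The lowest were PPAN at 1.17 ± 0.155 RPKM and EIF4A1 at 0.723 ± 0.0831, and both share exons with readthrough genes: 59.8% of the exonic bases of PPAN and 48.6% of those of EIF4A1 overlap other genes. The part of that overlap in their levels was not tested. The genes whose sites are printed above ranged from HSPE1 at 11.2 ± 0.126 RPKM to LDHA, with SRM at 80.1 ± 4.82 and HSPD1 at 111 ± 2.24. Of the exonic bases of HSPE1, 23.9% overlap HSPD1 or a readthrough gene, and the part of this in its level was not tested. The 11 genes with CACGTG in the window, HSPD1 and HSPE1 by the same site, had a median of 43.7 RPKM and the 15 without it 40.8 RPKM.

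Genes that MYC is known to repress were present as well, 11 of 12 at the level (91.7%, beside 66.7% of all entries) with a median of 11.1 RPKM. The matrix gene THBS1 was at 87.5 ± 0.204 RPKM, the cyclin-dependent kinase inhibitor genes CDKN1A and CDKN1B at 78.6 ± 0.473 and 22.0 ± 1.31, and the stress gene GADD45A at 24.0 ± 0.264. CDKN2B was at 2.01 ± 0.180 RPKM, and GADD45G had 1 read in replicate 1 and 4 in replicate 2. With no untreated library, levels of activated or repressed genes show neither how much of them MYC set nor how aphidicolin changed them.

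Targets of MLX with MLXIP or MLXIPL had the lowest median of the lists of protein-coding genes outside the network, 1.35 RPKM. Of 6 genes 4 were listed and 3 reached the level, or 75% of those listed, which is near the 66.7% of all entries and is no result about these targets. KLF10 was at 24.3 ± 0.843 RPKM, whereas TXNIP, the glucose-responsive arrestin family gene most often used to read MondoA, was at 1.22 RPKM in replicate 1 and 1.58 in replicate 2. Its relative ARRDC4 was at 1.32 and 1.30 RPKM, and ACACB at 0.995 and 0.911 RPKM. PKLR and G6PC1 were not listed.

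Other leucine zipper factors that bind E-boxes but do not pair with MAX reached the level in 7 of 8 cases, with a median of 20.7 RPKM. TFE3 was at 46.9 ± 2.14 RPKM, the sterol regulators SREBF2 and SREBF1 at 37.5 ± 0.0796 and 29.2 ± 0.967, and USF2 at 29.5 ± 1.18. Each of these 4 genes was above MYC on the deposited RPKM scale in both libraries, and MYC at GENCODE's length was above all but TFE3. TFEB was at 2.50 ± 0.191 and TFEC at 0.238 ± 0.00266 RPKM.

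**Figure D4:**
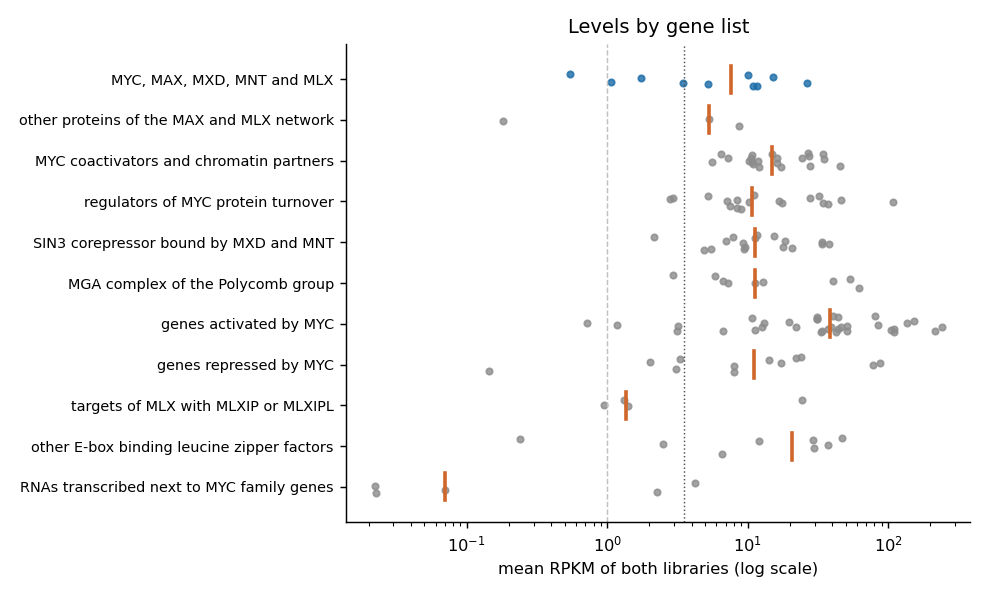
Mean RPKM of both libraries (log axis) for each gene of the network, in blue, and of the 10 other lists, in grey, with the median of each list as an orange bar. The dashed line marks 1 RPKM and the dotted line the median of all entries, 3.53 RPKM. MYC-activated genes have the highest median, at 38.5 RPKM, and the network itself has 7.62 RPKM.

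Of 12 RNAs transcribed beside MYC family genes 5 were listed. PVT1, the long noncoding RNA downstream of MYC, was at 4.11 RPKM in replicate 1 and 4.39 in replicate 2, and its RPKM were divided by 24957 exonic bases where GENCODE release 29 has 5493. CASC8 was at 1.68 and 2.82 RPKM on 52 and 86 reads, and it did not pass the exact binomial test after adjustment (adjusted p = 0.105). Those reads rest on a length of 2342 bases, and its RPKM also allow other multiples of 1171 bases. More or fewer reads would change the p, and this was not tested. PCAT1 had 16 and 15 reads. CASC11, which lies beside MYC, had 2 reads in replicate 1 and 1 in replicate 2, and MYCNOS, antisense to MYCN, had 1 and 2.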

How the data were processed

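Polyadenylated RNA of 2 libraries was measured. Per the file headers, the deposited values are RPKM, and each library has its own column. The submitters' processing notes name HISAT2, Trim Galore and featureCounts, and as builds GRCh38.p13 and hg38. Versions, annotation, strand use and filters are not stated there. The members and gene lists were chosen with earlier results of these data known.

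Of 18277 rows, 194 under repeated symbols were left out, and entries with equal values in both libraries were taken once, which left 17912. Whole reads were recovered from the ratio of both columns (tolerance 2e-13), and library totals came from 1019 genes with equal reads. Each gene's reads are known up to a whole factor, set by the exon length in GENCODE release 29. Reads came to 98.1% of each total. By the library totals, a 2 kb gene at 1 RPKM held 26.5 reads in replicate 1 and 26.0 in replicate 2. Intervals are exact Poisson and cover counting error only. The libraries were compared with an exact binomial test over all genes at 1 RPKM or more in both libraries, scaled by the trimmed mean of M values (factor 0.9957) and Benjamini-Hochberg adjustment at 0.05. The steps were tested on simulated data with Poisson reads and the true exon lengths supplied. That check therefore covers neither the choice of whole factor nor spread beyond counting error.

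The text names all members, their 3 further network partners, the 4 highest and 2 lowest listed genes of each other list, every listed RNA beside MYC family genes and any list gene that differed between libraries. A gene taken by this rule is not reported here. HSPD1, HSPE1 and SRM were added with their sites after the values were seen. Python 3.11.15, numpy 2.4.6, scipy 1.17.1, pandas 2.3.3 and matplotlib 3.10.9 were used.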

Additional observations from a re-analysis of the deposited data

How the results depend on the processing

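The count of network genes at the level (9) was 5 with 5 RPKM required, by construction of a stricter limit, 10 with 0.5 RPKM or with 1 CPM from recovered reads, and 9 in either library alone. Of 60 counts over the other lists under alternatives, 58 stayed within 1.5 times of the reported count. The exceptions, both at 5 RPKM, were 1 for the targets of MLX and 0 for the RNAs beside MYC family genes. This tolerance is wide, and lists that are already complete cannot rise. The setting for shared exonic bases takes genes out of a list, as with MYC-activated genes (33 to 23), so it says little about their levels. No network gene was called different between the libraries (0) with library totals as scaling, over all genes of the table or at an adjusted p under 0.01. The share of the MYC genes (32.5%) was 27.7% by reads not divided by length and 38.9% at GENCODE exon lengths. The same settings gave 15.9% and 15.2% for MAX, 42.3% and 31.8% for the repressors and 14.2% and 14.1% for MLX. The cause lies in the lengths, since only these changed. GENCODE lengths, and list counts over genes with under 10% of exonic bases shared, were chosen after seeing the data. Levels in TPM were higher by the same factor for every gene of a library, as built in, with MYC at 123 TPM. The libraries form a single group, so no paired analysis was possible because nothing can be paired. Depth limits the genes with few reads, among them MYCN, MYCL, MLXIPL, TFEC, GADD45G, PCAT1, CASC11 and MYCNOS.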
